A study of Mus musculus with 8 samples.

Results

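The genes described here encode the proteins of the cytosolic ribosome in the mouse. They were chosen by symbol as autosomal protein-coding genes whose name starts with Rpl or Rps followed by a digit, or is Rpsa, Rplp0, Rplp1 or Rplp2, with the Rps6k kinases and names of pseudogenes left out. This gave 82 of 20807 autosomal protein-coding genes. By their known roles, 40 encode proteins of the large subunit, 30 proteins of the small subunit and 3 the acidic stalk of the large subunit, 8 are paralogs, and 1, Rps19bp1, carries the symbol of a protein that binds RPS19 and is not itself a ribosomal protein.

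The question was where peaks of WFS1, a transmembrane protein of the endoplasmic reticulum that the study examined at the inner nuclear membrane, lay relative to these genes. ChIP-seq, the sequencing of DNA that is recovered with a protein by immunoprecipitation, had been carried out with a WFS1 antibody in wildtype proliferating C2C12 cells, an established line of mouse myoblasts. All libraries were made after crosslinking with DSG and formaldehyde, and the 2 libraries used here came from 1 immunoprecipitation, with 30 cycles of sonication in the first and 6 more, 36 in all, in the second. The experiment held 8 libraries, and the other 6, namely the inputs of both kinds of cells and the ChIP of WFS1 knockout cells that expressed FLAG-tagged WFS1, were not used here. The 30-cycle list held 18283 peaks and the 36-cycle list 12674, and joining overlapping peaks gave a combined set of 22292. The lists give positions without signal, so read depth and peak height are unknown, the identity of the cells could not be checked against marker genes, and there is no replicate of either condition. Intervals below are 95% Wilson intervals over genes or peaks. They cover counting error only and treat genes as independent.

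Ribosomal proteins surround the ribosomal RNA in a large and a small subunit, which are assembled in the nucleolus and exported to the cytoplasm, where the small subunit reads the mRNA and the large subunit joins amino acids. Growing cells such as proliferating myoblasts transcribe these genes at high levels from short genes with few kilobases of intron, and many of the introns hold small nucleolar RNAs (snoRNAs) that guide the modification of ribosomal RNA.

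Of the 82 genes, 29 had a WFS1 peak within 1 kb of the start site, which was taken as the 5′ end of the gene in the GENCODE annotation of GRCm38. This share of 35.4% (interval 25.9 to 46.2) compares with 13.8% of all autosomal protein-coding genes. Within 50 kb of the start, 69 of the 82 genes (84.1%, interval 74.7 to 90.5) had a peak, against 56.1% of all genes. Peaks at the start were found in the large subunit at 17 of 40 genes (42.5%, interval 28.5 to 57.8) and in the small subunit at 12 of 30 (40%, interval 24.6 to 57.7), shares whose intervals overlap. None of the 3 stalk genes and none of the 8 paralogs had one, where intervals reached up to 56.1% and 32.4%. With the paralogs and Rps19bp1 left out of the count, 29 of 73 components of the ribosome (39.7%) had a peak at the start and 63 (86.3%) had one within 50 kb.

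**Figure D1:**
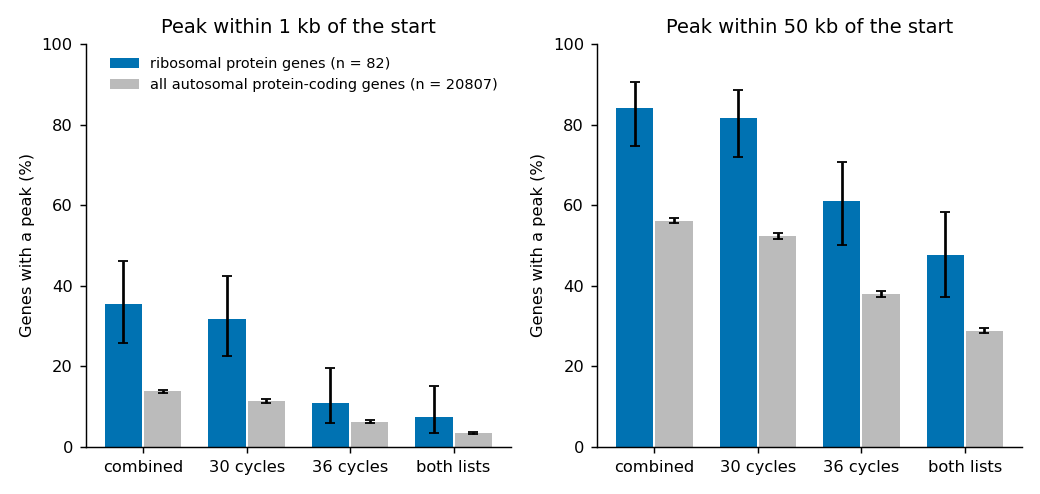
Share of genes in percent with a WFS1 peak within 1 kb (left) and 50 kb (right) of the start, in the combined set, each list alone and among peaks of both lists, for the ribosomal protein genes (blue) and all autosomal protein-coding genes (grey), with bars for 95% Wilson intervals. At the start in the combined set the shares were 35.4% and 13.8%, and the blue bar is the higher of the pair throughout.

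With the 5′ end of the gene as the start, the start sites covered by a peak belonged to 7 genes. Of the 33 peaks within 1 kb of a start, these were 21.2% (interval 10.7 to 37.8), against 21.7% over all genes. Further genes had a peak over another of their annotated transcript starts, among them Rpl8, Rpl21 and Rps20. The sequences before the start of 4 of the 7 genes are shown because the data bear on these promoters directly. They are the 100 bases upstream of the annotated start in the direction of transcription, read from the GRCm38 genome, in lower case with matches to the searched motifs in capitals. For contrast the same 100 bases are given for Rps6 and Rps9, which had no peak within 100 kb. Rpl32 lies on the minus strand at chr6:115808748-115808847, Rpl23 on the minus strand at chr11:97782438-97782537, Rpl35a on the plus strand at chr16:33056353-33056452, Rpl30 on the minus strand at chr15:34443641-34443740, Rps6 on the minus strand at chr4:86857413-86857512 and Rps9 on the plus strand at chr7:3703893-3703992. The peak covered all 100 bases in Rpl32, Rpl23 and Rpl30 and the last 40 bases in Rpl35a.
Rpl32: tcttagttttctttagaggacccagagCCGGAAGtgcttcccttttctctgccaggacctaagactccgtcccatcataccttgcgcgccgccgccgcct
Rpl23: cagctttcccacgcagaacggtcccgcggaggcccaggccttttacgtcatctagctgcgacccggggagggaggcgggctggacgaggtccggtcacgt
Rpl35a: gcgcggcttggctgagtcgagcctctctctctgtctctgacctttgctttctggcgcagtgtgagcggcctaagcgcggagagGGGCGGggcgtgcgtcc
Rpl30: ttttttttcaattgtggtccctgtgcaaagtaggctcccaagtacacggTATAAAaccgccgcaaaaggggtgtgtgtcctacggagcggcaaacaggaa
Rps6: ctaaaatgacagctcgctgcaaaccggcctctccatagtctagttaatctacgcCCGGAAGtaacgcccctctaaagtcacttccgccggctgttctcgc
Rps9: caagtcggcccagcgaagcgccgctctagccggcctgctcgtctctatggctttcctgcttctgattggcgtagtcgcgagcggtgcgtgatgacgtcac
The capitals in Rpl35a mark a GC box, those in Rpl32 and Rps6 the ETS motif and those in Rpl30 a TATA box. The stretches of Rpl23 and Rps9 held none of the motifs searched. The ETS motif thus stood before a start covered by a peak and before one with no peak nearby.

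Among the large subunit genes, Rpl23 had a peak of 445 bp over its start that was called after 30 cycles only and not after 36. Rpl32 and Rpl30 were likewise covered only in the 30-cycle list, by peaks of 714 and 318 bp. The peak over the start of Rpl35a was 206 bp wide and was called after 36 cycles only. Rpl36 was the large subunit gene whose start was covered by a combined peak that held peaks of both lists. This combined peak was 405 bp wide and reached from 4 bases before the start into the gene, where 273 of its bases were intronic and 128 exonic. Its 36-cycle peak lay 0.147 kb from the start, so the start itself was covered in the 30-cycle list only. The other 12 large subunit genes with a peak at the start had it beside the start, at distances to the nearest peak edge from 40 bp in Rpl10a to 979 bp in Rpl12, the component of the stalk base.

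In the small subunit, the start of Rps24 was covered by a peak of 647 bp called after 30 cycles only, of which 68.2% was soft-masked as repeat in the genome. Peaks began 1 bp downstream of the start of Rps23, whose product sits in the decoding centre, and 4 bp downstream of the start of Rps15. Both were called after 30 cycles only.

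**Figure D2:**
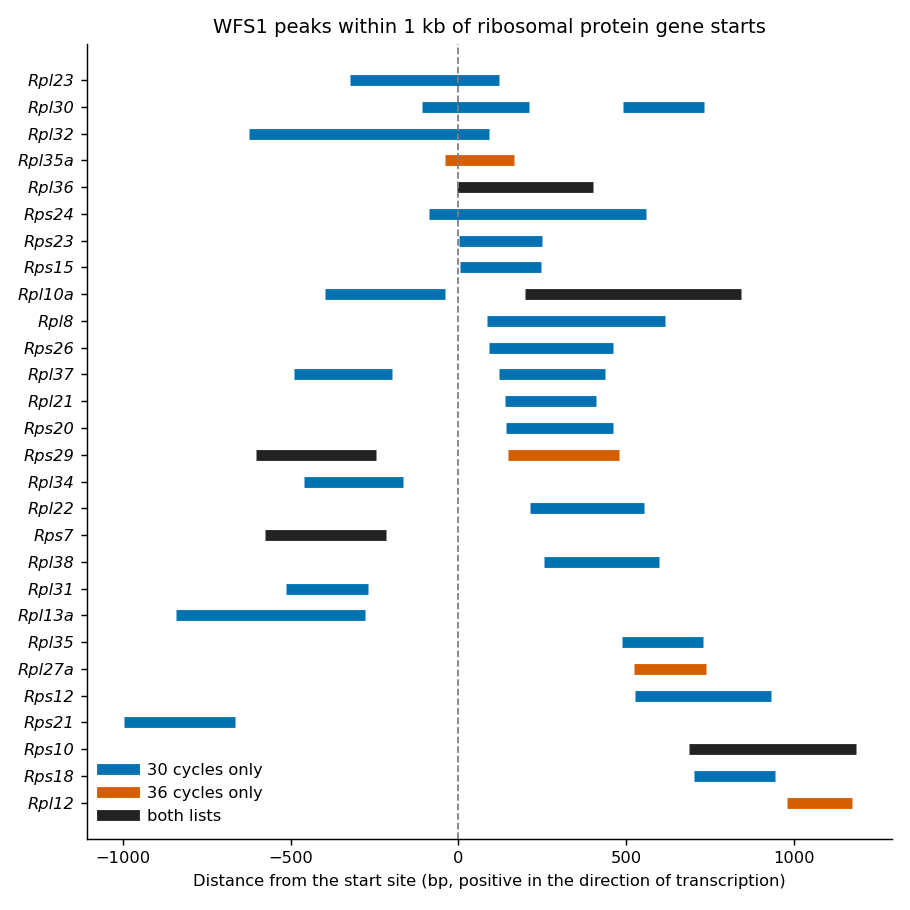
Map of 32 WFS1 peaks within 1 kb of the start of 28 ribosomal protein genes, drawn to scale relative to each gene's start in the direction of transcription (x axis in bp), with colour giving the list in which the peak was called. The start is covered in 6 genes, and most of the other peaks lie downstream of it.

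The 29 genes carried 33 peaks at the start, since Rpl30, Rpl10a, Rpl37 and Rps29 had 2 each. In Rpl10a, whose product lies at the L1 stalk, one peak of 360 bp ended 40 bp before the start and was called after 30 cycles only, and the other, 646 bp, lay wholly in exon sequence of the gene and was called in both lists. In Rps29, the peak nearest the start was 329 bp wide, called after 36 cycles only and mostly intronic, whereas the peak of 356 bp upstream was called in both lists. The 33 peaks had a median width of 334 bp, against 349 bp for the peaks at all start sites. Their centres lay downstream of the start in 23 of 33 (69.7%, interval 52.7 to 82.6) against 57.8% over all genes, a share within that interval. Measured from the nearest annotated transcript start instead, the share was 42.4% against 49.1% over all genes. Which of the shares was the higher thus depended on the start used, and no downstream excess was resolved.

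By sequence class, 41.7% of the bases of the 33 peaks lay in exons of the gene, 23.4% in introns and 34.9% outside it. Exons of every annotated transcript were counted, including stretches that other transcripts splice out. In the windows of 1 kb on either side of the start of the 29 genes, the shares were 33.1%, 16.7% and 50.3%. Exon and intron shares were thus both higher in the peaks and the share outside the gene lower, as point values. An exon of the gene was overlapped by 24 of the 33 peaks, 7 lay mostly in introns and 6 touched no exon of any gene. The peak of Rps12 overlapped a snoRNA, annotated as Gm23130. Of the 28 genes that host a snoRNA, 11 (39.3%, interval 23.6 to 57.6) had a peak at the start, and of the 54 without one, 18 (33.3%, interval 22.2 to 46.6).

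An intronic peak is shown by its central 200 bases, in the direction of transcription, because it holds no exon of any gene. In Rpl22 the peak of 343 bp lay wholly in an intron, 212 bp downstream of the start and on the plus strand, and was called after 30 cycles only. The bases shown are at chr4:152326025-152326224. Capitals mark GC boxes.
Rpl22: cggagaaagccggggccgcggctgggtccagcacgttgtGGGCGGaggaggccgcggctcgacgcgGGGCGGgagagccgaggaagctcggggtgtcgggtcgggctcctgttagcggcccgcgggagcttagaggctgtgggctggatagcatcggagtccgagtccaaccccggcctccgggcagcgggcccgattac
The Rpl22 peak was 71.4% G and C with no base soft-masked as repeat.

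The remaining peaks lay beside the start. Rpl8, Rps26, Rpl21 and Rps20 had a peak beginning 84 to 142 bp from the start, downstream of it and called after 30 cycles only. Rpl37 had a peak 120 bp downstream and a second one upstream, both after 30 cycles only. Upstream peaks called after 30 cycles only lay at Rpl34, Rpl31, Rpl13a and Rps21, 164 to 665 bp from the start, and downstream peaks of the same list at Rpl38 and Rps12. Rpl27a had a peak of 214 bp after 36 cycles only, 524 bp downstream. By the 5′ ends of genes, another gene started nearer to the peak centre in 4 cases. These were Arpc5l at the peak of Rpl35, RPS10-NUDT3 at that of Rps10, Vps52 at that of Rps18 and Lrsam1 at that of Rpl12. This depended on the start used. From the nearest of its own annotated transcript starts, the nearest peak lay at 0 kb for Rpl35, Rps10 and Rps18 and at 0.272 kb for Rpl12. Of the peak at Rps10, 55.1% was soft-masked as repeat. More than 50% was masked in 2 of the 33 peaks (6.06%), against 3.83% of peaks at all starts. No base was masked in 17 of the 33 (51.5%), against 35.0% of peaks at all starts. Taking each gene by its nearest peak, the last gene inside the window was Rpl12 at 979 bp and the first outside it Rps14 at 2135 bp.

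The lists differed in how many of the genes they held. After 30 cycles 26 of the 82 genes (31.7%) had a peak at the start, against 11.4% of all genes, and after 36 cycles 9 (11.0%, interval 5.88 to 19.6), against 6.29%. The interval after 36 cycles includes the share of all genes. In 20 genes the peaks at the start came from the 30-cycle list only and in 3 genes, Rpl35a, Rpl27a and Rpl12, from the 36-cycle list only. A combined peak holding peaks of both lists stood at the start of 6 genes (7.32%, interval 3.40 to 15.1, against 3.49% of all genes), among them Rpl36, Rps7, Rps10, Rpl10a and Rps29, and this interval too includes the share of all genes. Counted by peak, 23 of 33 (69.7%, interval 52.7 to 82.6) were called after 30 cycles only, against 55.6% of peaks at all start sites and 45.5% of all combined peaks. That interval includes the share at all start sites and lies above that of all combined peaks. Peaks of both lists made up 18.2% (interval 8.61 to 34.4) of the 33 and 23.4% of the peaks at all starts. Because each list is 1 library of unknown depth, a difference between sonication conditions and a difference between libraries cannot be told apart.

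Farther from the start, 40 of the 53 genes without a peak at the start (75.5%, interval 62.4 to 85.1) had one within 50 kb, against 49.1% of all genes without one at the start. After 30 cycles 67 genes (81.7%) had a peak within 50 kb, against 52.3% of all genes, after 36 cycles 50 (61.0%) against 37.9%, and 39 (47.6%) had a peak of both lists, against 28.9%. The large subunit had 38 of 40 genes within 50 kb of a peak (95%, interval 83.5 to 98.6) and the small subunit 23 of 30 (76.7%, interval 59.1 to 88.2). The intervals of the subunits overlap. A peak overlapped the body of 26 genes (31.7%, interval 22.6 to 42.4), against 25.6% of all genes, a share within that interval. Ribosomal protein genes are short, with a median length of 3.40 kb against 17.6 kb for all genes.

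The median distance from the start to the nearest peak was 13.1 kb (interval from order statistics 3.63 to 23.6) against 38.4 kb over all genes. It was 13.8 kb against 45.3 kb for the 30-cycle list and 35.6 kb against 80.9 kb for the 36-cycle list. Just beyond the window of 1 kb were Rps14, a small subunit gene, with its nearest peak at 2.13 kb, Rpl24 at 2.83 kb and Rpl9 at 3.63 kb, all called after 30 cycles only. These distances depended on the start used. Rps14 is annotated over 31.4 kb, the longest of the genes, and from the nearest of all annotated transcript starts its distance was 1.56 kb, that of Rpl24 0.530 kb and that of Rpl9 1.10 kb. The greatest distances were those of Rps6, whose product is the phosphorylated target of S6 kinases, at 143.5 kb, Rps9 at 252.5 kb and Rpl10l at 774.8 kb. More than 100 kb separated 6 genes (7.32%) from any peak, against 27.8% of all genes.

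**Figure D3:**
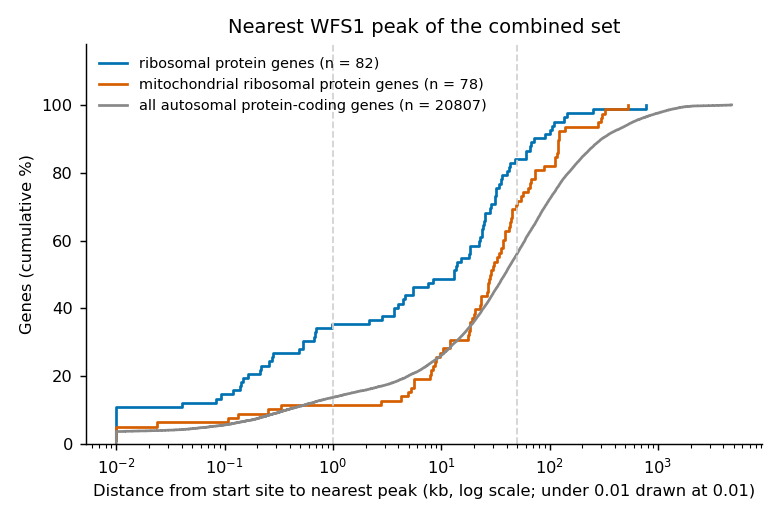
Cumulative share of genes in percent against the distance from the start to the nearest WFS1 peak, in kb on a log axis with distances under 0.01 kb drawn at 0.01, for cytosolic and mitochondrial ribosomal protein genes and all autosomal protein-coding genes. Dashed lines mark 1 and 50 kb, and the medians were 13.1 kb, 28.5 kb and 38.4 kb.

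Peaks within 50 kb were unevenly spread over the genes. Rpl23 had 10 of them, Rps14 9, Rpl30 7, and Rpl12 and Rps19bp1 6 each. At least 5 peaks lay near 12 of the 82 genes, against 8.21% of all genes, whereas 24 genes had 1 and 13 had 0. The mean was 2.34 peaks, against 1.48 over all genes. There were 185 different peaks in all, of which 60 were called in both lists, 95 just in the 30-cycle list and 30 just in the 36-cycle list, and 7 were within 50 kb of more than 1 of the genes. Of these peaks, 102 lay beyond 1 kb of any protein-coding start, and 72 of the 102 (70.6%) were nearest to the start of a gene other than the ribosomal protein gene.

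The paralogs, several of which are expressed in particular tissues, had their nearest peaks between 13.1 and 774.8 kb from the start. Rpl36al had it at 13.1 kb and Rpl39l at 13.6 kb. Rpl3l, the form of heart and skeletal muscle, had its nearest peak at 31.7 kb, called after 30 cycles only. The distances were 34.0 kb for Rps27rt, 42.7 kb for Rps27l, 60.3 kb for Rpl7l1 and 65.7 kb for Rpl22l1, and Rpl10l, the form of the male germ line, had the greatest distance of the whole group. Among the stalk genes Rplp0 had a peak at 5.53 kb, Rplp2 at 18.4 kb and Rplp1 at 105.8 kb. Rps19bp1 had its nearest peak at 5.50 kb, called after 36 cycles only.

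Chromosomes differed in how many of their genes had a peak. Chromosome 7 carries 14 of the 82 genes, and 2 of them, Rpl13a and Rpl27a, had a peak at the start, while 6.67% of all genes on that chromosome did. On chromosome 9 it was 0 of 8 genes, against 8.93% of all genes there. Chromosome 15 had 3 of 5, Rpl30, Rpl8 and Rpl37, with 24.2% of all its genes and 14.5 peaks per Mb, the highest density of the autosomes, against 6.48 per Mb on chromosome 7. Chromosome 17 had 4 of 8 genes with a peak at the start, against 13.4% of all its genes. Without chromosome 15, the share was 33.8% for the ribosomal protein genes and 13.4% for all genes.

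The promoters and the surroundings of the genes differed from those of the average gene. A CpG-rich start, defined as at least 50% G and C and an observed to expected CpG ratio of at least 0.6 from 250 bases before to 50 after the start, was found in 59 of 82 genes and in 42.5% of all genes. Among all genes with such a start 22.1% had a peak within 1 kb, and among the ribosomal protein genes with one 22 of 59 did (37.3%, interval 26.1 to 50.05). Without a CpG-rich start the counts were 7 of 23 (30.4%, interval 15.6 to 50.9) against 7.63% of all such genes. The genes had a median of 3 other protein-coding starts within 50 kb, against 2 for all genes. Among genes with at least 3, 61.9% had a peak within 50 kb and 11.9% one at the start, and of the 43 ribosomal protein genes among them 37 (86.0%, interval 72.7 to 93.4) had one within 50 kb.

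Motifs were searched as exact letters on both strands in the promoters and the peaks. The GC box GGGCGG was present in 36 of 82 promoters (43.9%, against 43.7% of all promoters), the ETS motif CCGGAAG in 23 (28.0% against 11.0%), the YY1 motif AAGATGG in 10 (12.2% against 6.24%), the TATA box TATAAA in 8 (9.76% against 12.7%) and the Myc-type E-box CACGTG in 11 (13.4% against 7.82%). The MyoD-type E-box CAGCTG was in 8 (9.76% against 15.5%) and the AP-1 motif TGACTCA in 3 (3.66% against 4.52%). Of all promoters with a CpG-rich start, 75.8% held the GC box, 19.8% the ETS motif and 6.91% the YY1 motif. The TATA box was in 4.83% of these, the Myc-type E-box in 12.03%, the MyoD-type E-box in 13.2% and the AP-1 motif in 2.27%. Against these shares the 82 promoters were lower in the GC box and the MyoD-type E-box, as point values. They were higher in the ETS, YY1 and AP-1 motifs, the TATA box and the Myc-type E-box, also as point values. Of the 82 genes, 59 had such a start. Promoters with a peak at the start held the GC box in 16 of 29 and the ETS motif in 10 of 29, and those without in 20 of 53 and 13 of 53.

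In the 33 peaks at starts, the GC box was found in 18 (54.5%, against 46.9% of peaks at all starts) and the YY1 motif in 8 (24.2% against 8.16%). These 8 were peaks of Rpl35a, Rps23, Rps15, Rps26, Rpl21, Rps7, Rpl30 and Rps12. The Myc-type E-box was in 6 (18.2% against 11.1%), the ETS motif in 5 (15.2% against 10.7%) and the TATA box in 1, that of Rpl30 (3.03% against 10.2%). The MyoD-type E-box and the AP-1 motif were in 0 of the 33 peaks, against 22.7% and 9.37% of peaks at all starts. No interval was computed for these motif shares, so they are point values from few peaks. In the 102 peaks beyond 1 kb of any start the MyoD-type E-box was in 36 (35.3%, against 34.5% of all 18969 such peaks) and the AP-1 motif in 23 (22.5% against 34.8%). A match is a description of letters and not of binding.

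**Figure D4:**
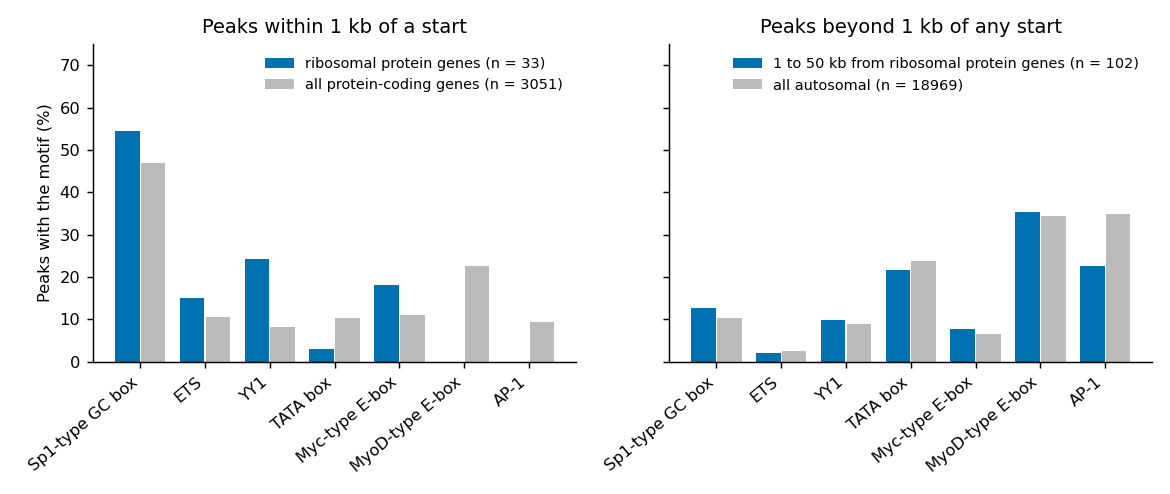
Share of peaks in percent that hold each of 7 motifs, at the start of ribosomal protein genes (33 peaks) and of all genes (3051 peaks) on the left, and among peaks beyond 1 kb of any start near ribosomal protein genes (102 peaks) and on all autosomes (18969 peaks) on the right. The MyoD-type E-box and the AP-1 motif were in 0 of the 33 peaks and in 35.3% and 22.5% of the 102, as point values without intervals.

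Related gene lists gave the following values. Among cytosolic ribosomal proteins under other symbols, Rack1, a signalling scaffold on the small subunit, had a peak 0.209 kb from the start, and Fau, which encodes a fusion of a ubiquitin-like protein and RPS30, had its nearest at 41.8 kb. Of the 78 mitochondrial ribosomal protein genes, whose products form the separate ribosome of mitochondria, 9 had a peak at the start (11.5%, interval 6.19 to 20.5) and 55 within 50 kb (70.5%, interval 59.6 to 79.5), with a median distance of 28.5 kb. In the combined set their interval at the start lies below that of the cytosolic genes. With the 36-cycle list alone the intervals overlapped, at 3.85% (interval 1.32 to 10.7) for the mitochondrial and 11.0% (interval 5.88 to 19.6) for the cytosolic genes. Ribosome biogenesis factors had a peak at the start in 18 of 49 genes (36.7%, interval 24.7 to 50.7) and cytosolic translation factors in 13 of 37 (35.1%, interval 21.8 to 51.2). Abundant cytoskeletal and glycolytic genes had one in 18 of 27 (66.7%, interval 47.8 to 81.4), an interval above that of the 82 ribosomal protein genes in the combined set. It overlapped that of the 73 components of the ribosome (29.3 to 51.2), and with the 30-cycle list alone the intervals of the abundant genes (37.3 to 72.4) and of the 82 genes (22.6 to 42.4) overlapped as well. With the 36-cycle list alone they did not overlap, at 44.4% (interval 27.6 to 62.7) for the abundant genes and 11.0% (interval 5.88 to 19.6) for the 82 genes. RNA levels were not measured in these libraries, and the part of transcription level in these shares was not tested.

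**Figure D5:**
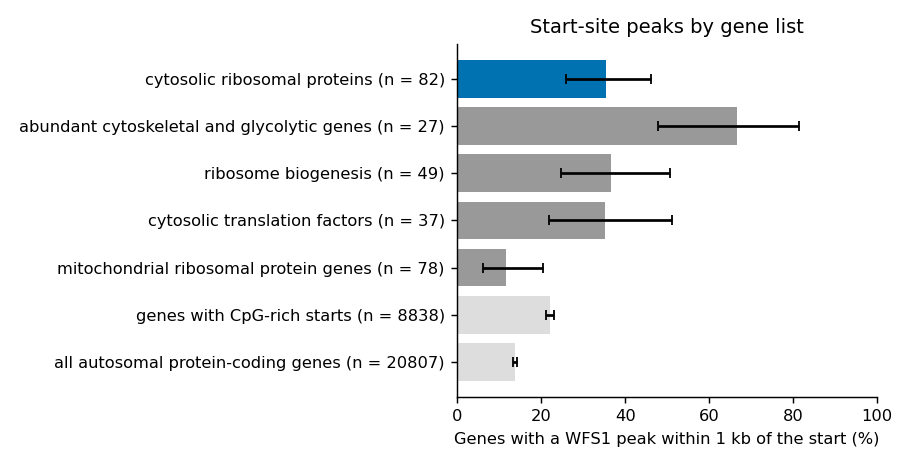
Share of genes in percent with a WFS1 peak within 1 kb of the start, for the cytosolic ribosomal protein genes, 4 related gene lists, all genes with a CpG-rich start and all autosomal protein-coding genes, with bars for 95% Wilson intervals. The cytosolic ribosomal protein genes had 35.4%, the mitochondrial ones 11.5% and the abundant cytoskeletal and glycolytic genes 66.7%.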

How the data were processed

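WFS1 ChIP-seq peaks were taken from the deposited lists of 2 libraries of wildtype C2C12 myoblasts. According to the study's methods, the authors aligned the reads with NextGenMap to the GRCm38 assembly, dropped those of low mapping quality using samtools, and ran MACS2 on each library alone. The deposited lists hold chromosome, start and end. The lists were joined where they overlapped, as bedtools merge does (bedtools 2.31.1, Python 3.11.15, pandas 2.3.3, scipy 1.17.1). Genes came from GENCODE M21, whereas the study's methods name a later Ensembl release. Distances ran from the start to the nearest peak edge, in windows of 1 kb and 50 kb. Sequences were read from the RefSeq GRCm38.p6 genome with pysam 0.24.0.

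With 1 library per condition no test was run and no p-value is given. The counting was tested on simulated data. The members and all lists were chosen with earlier results of these data known. Named, apart from items that are not reported here, are the genes with a peak within 1 kb, the 3 next and the 3 farthest, the 5 with most peaks within 50 kb (a tie adds 1), the paralogs, Rps19bp1, Fau and Rack1. The stalk genes were named after their values were seen. Alternatives were other windows, peak centres, each list alone, peaks of both lists, joining of peaks up to 500 bp apart, every transcript start, other sets of members and other backgrounds.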

Additional observations from a re-analysis of the deposited data

How the results depend on the processing

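The share of ribosomal protein genes with a peak at the start was above that of all genes, as a point value, in every alternative run. It moved to 11.0% with the 36-cycle list alone and to 7.32% with peaks of both lists only, and in both the share of all genes (6.29% and 3.49%) lay within the interval of the ribosomal protein genes, so that the excess was not resolved there. The share within 50 kb moved to 58.5% with a window of 20 kb, 92.7% with 100 kb, 61.0% with the 36-cycle list alone and 47.6% with peaks of both lists only. The median distance was 35.6 kb with the 36-cycle list alone. The share of peaks centred downstream was 42.4% from the nearest transcript start, below the 49.1% of all genes. From the 5′ end of the gene it was above that of all genes as a point value (69.7% against 57.8%). The share of all genes lay within the interval there. The background at the start was 22.1% over CpG-rich starts and 11.9% over genes with at least 3 neighbouring starts, and within 50 kb it was 66.9% and 61.9%. Another 19 values for the ribosomal protein genes stayed within their intervals. The shares of the 5 related lists stayed within theirs with the 30-cycle list alone and fell below them with the 36-cycle list alone. The background of neighbouring starts and the count without chromosome 15 were chosen after seeing the data. No paired analysis was possible because there was 1 library for each sonication time and nothing was tested. The lists hold no scores, so peaks could not be filtered more strictly, and unknown depth limits any reading of a missing peak.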

Other observations

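Chromosome X holds 4 further ribosomal protein genes, which were left out of all counts above. The nearest peak lay 2.86 kb from the start of Rpl36a, 26.4 kb from that of Rpl10, 31.7 kb from that of Rps4x and 1154 kb from that of Rpl39, and none of the 4 had a peak within 1 kb. Of 259 annotated pseudogenes of ribosomal proteins, 6 (2.32%, interval 1.07 to 4.96) had a peak within 1 kb, against 1.26% of 11204 processed pseudogenes, and 132 (51.0%, interval 44.9 to 57.0) had one within 50 kb, against 35.1%.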
